A study of Rattus norvegicus with 6 samples.

Results

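The 9 hypoxia response genes described here are Hif1a, Vegfa, Egln1, Egln3, Adm, Bnip3, Ddit4, Pdk1 and Car9. They were chosen by name, and their probes are the non-control probes of the array whose RefSeq accession belongs to one of them. Of these 9 genes, 8 had such a probe, with 10 probes in all, among 13837 gene symbols and 41012 non-control probes. No probe carried a RefSeq accession of Egln1, so Egln1 has no value below. RNA came from washed jejunum of male Sprague-Dawley rats aged 6 weeks and weighing 200 ± 20 g. Control rats were kept at 25°C, and rats of the S3d group were kept at 35°C and vibrated at 0.1 g, in sessions of 2 h on each of 3 days. Each group had 3 Agilent 1-colour arrays, and each array carried RNA mixed from 3 rats, so the spread between arrays is the spread between pools. The labels give 10 rats per group, and the methods of the study give a smaller number.

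Hypoxia-inducible factor (HIF) is the main switch of the response to low oxygen. In oxygenated cells the prolyl hydroxylases, Egln1 and Egln3 among them, mark the alpha subunits Hif1a and Epas1 for destruction through the Vhl complex, so that Hif1a is controlled largely as a protein. When oxygen falls, the alpha subunit persists, pairs with Arnt and raises genes of vessel growth and tone (Vegfa, Adm), of mitochondrial restraint (Pdk1, Bnip3), of mTOR inhibition (Ddit4) and of pH control (Car9), together with its own brake, Egln3. The intestinal mucosa is known for its steep oxygen gradient from crypt to villus tip, and in heat blood is diverted from the gut to the skin. The comparison of control and S3d rats was therefore read for genes that follow oxygen supply.

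HIF binds short DNA cores, ACGTG and GCGTG. These letters were looked up on both strands in the windows that RefSeq gives for the rat assembly GRCr8, which hold 250 bases before and 50 bases after each gene's start. All 9 genes were matched, Vegfa with more than 1 start, and 6 of them held at least 1 core, as did 41.6% of all 33469 windows. In the 250 bases before the start alone, 5 of the 9 genes held a core, against 36.7% of all windows. No core lay in the windows of Adm, Vegfa and Egln3, and bases outside the windows were not searched. The stretches before the start are shown for 4 genes that held a core and for Adm, whose level differed most between the groups. Capitals mark the cores, and where CACGTG occurs both strands read the same core, counted here as 1.
Hif1a, chr6:98359648-98359897, plus strand: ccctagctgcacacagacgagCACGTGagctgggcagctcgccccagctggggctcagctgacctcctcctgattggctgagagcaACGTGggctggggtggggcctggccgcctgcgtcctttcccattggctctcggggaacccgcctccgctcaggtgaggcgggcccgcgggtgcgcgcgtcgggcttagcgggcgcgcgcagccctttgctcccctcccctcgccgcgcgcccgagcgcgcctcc
Pdk1, chr3:77113264-77113513, plus strand: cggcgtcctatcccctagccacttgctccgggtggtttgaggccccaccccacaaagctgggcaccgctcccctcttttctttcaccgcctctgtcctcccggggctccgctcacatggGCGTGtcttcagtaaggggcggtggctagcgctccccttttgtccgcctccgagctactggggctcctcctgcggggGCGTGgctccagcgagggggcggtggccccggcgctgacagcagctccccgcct
Bnip3, chr1:203154963-203155212, minus strand: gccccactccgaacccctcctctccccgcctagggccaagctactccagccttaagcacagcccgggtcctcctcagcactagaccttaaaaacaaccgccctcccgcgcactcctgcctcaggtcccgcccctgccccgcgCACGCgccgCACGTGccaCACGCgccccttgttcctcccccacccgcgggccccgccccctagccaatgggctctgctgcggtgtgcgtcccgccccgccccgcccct
Ddit4, chr20:28437038-28437287, minus strand: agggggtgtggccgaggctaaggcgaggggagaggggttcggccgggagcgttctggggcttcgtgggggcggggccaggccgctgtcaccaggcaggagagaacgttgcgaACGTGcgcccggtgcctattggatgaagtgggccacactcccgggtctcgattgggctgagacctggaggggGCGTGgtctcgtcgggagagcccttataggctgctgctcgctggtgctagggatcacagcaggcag
Adm, chr1:174179950-174180199, plus strand: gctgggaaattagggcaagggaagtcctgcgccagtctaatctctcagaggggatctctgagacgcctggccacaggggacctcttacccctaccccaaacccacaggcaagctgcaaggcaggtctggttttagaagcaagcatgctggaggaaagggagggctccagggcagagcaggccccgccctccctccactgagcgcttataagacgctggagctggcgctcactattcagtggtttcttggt
A match is a description of the letters only. Before the start, the cores of Pdk1 began 131 and 54 bases away and those of Ddit4 138 and 66 bases away. Pdk1 held further cores that began at bases 22 and 31 after its start. Bnip3 held 3 separate cores between 108 and 90 bases before its start. The core of Car9 lay just after its start.

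The signal of the arrays differed strongly between the groups. On the arrays labelled control the 75th percentile of processed signal lay between 415 and 430, on those labelled S3d between 1458 and 1558, and no spot was saturated. Each group occupied a slide of its own, with 450 days between the scans of the 2 slides, so that slide, scan and group cannot be told apart. Of 10 villus enterocyte markers, all 9 that had a probe passed the detection filter. The markers of the other cell types did too, so this does not check the labelled tissue. The labels of the 2 deposited sources disagree. Each of the 6 columns of the normalized table followed the scanner file of the same replicate number in the other group, with a Spearman's rho that rounded to 1, and it followed the file of its own label with a rho of 0.942 to 0.952 only. No sample was reassigned here. The files used do not settle which source carries the right labels, so each direction below is that of the scanner files, arrays labelled S3d minus arrays labelled control, and it is opposite to the direction that the normalized table gives the member genes. It is also opposite, for most genes that the study lists with array fold changes or RT-PCR, to the direction given there.

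Levels are log2 of the processed signal relative to the 75th percentile of the same array, so that 0 is the level of that percentile. Calls were made below an adjusted p of 0.05 (limma, Benjamini-Hochberg over all 31367 tested probes), and where a gene has several probes the brighter one stands for it in counts. By the labels of the scanner files, Adm and Vegfa were the members with the lowest fold changes on the S3d arrays, Hif1a and Egln3 were lower by less, and Pdk1 was higher. Bnip3, Ddit4 and Car9 did not pass the test. Thus 4 of the 8 measured genes were called lower and 1 higher, and 3 were not called. Among all tested probes 34.5% were called lower, 39.5% higher and 74% in either direction, so the share of called members was not above that of all probes. Control and S3d values were separate for 6 of the 8 genes, and for 78.9% of the tested probes with a value on all 6 arrays. By its own labels, the normalized table called 3 genes higher and 1 lower in S3d, where 70.1% of all probes were called. In a bulk sample, fewer cells of a type and less RNA per cell cannot be told apart.

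**Figure D1:**
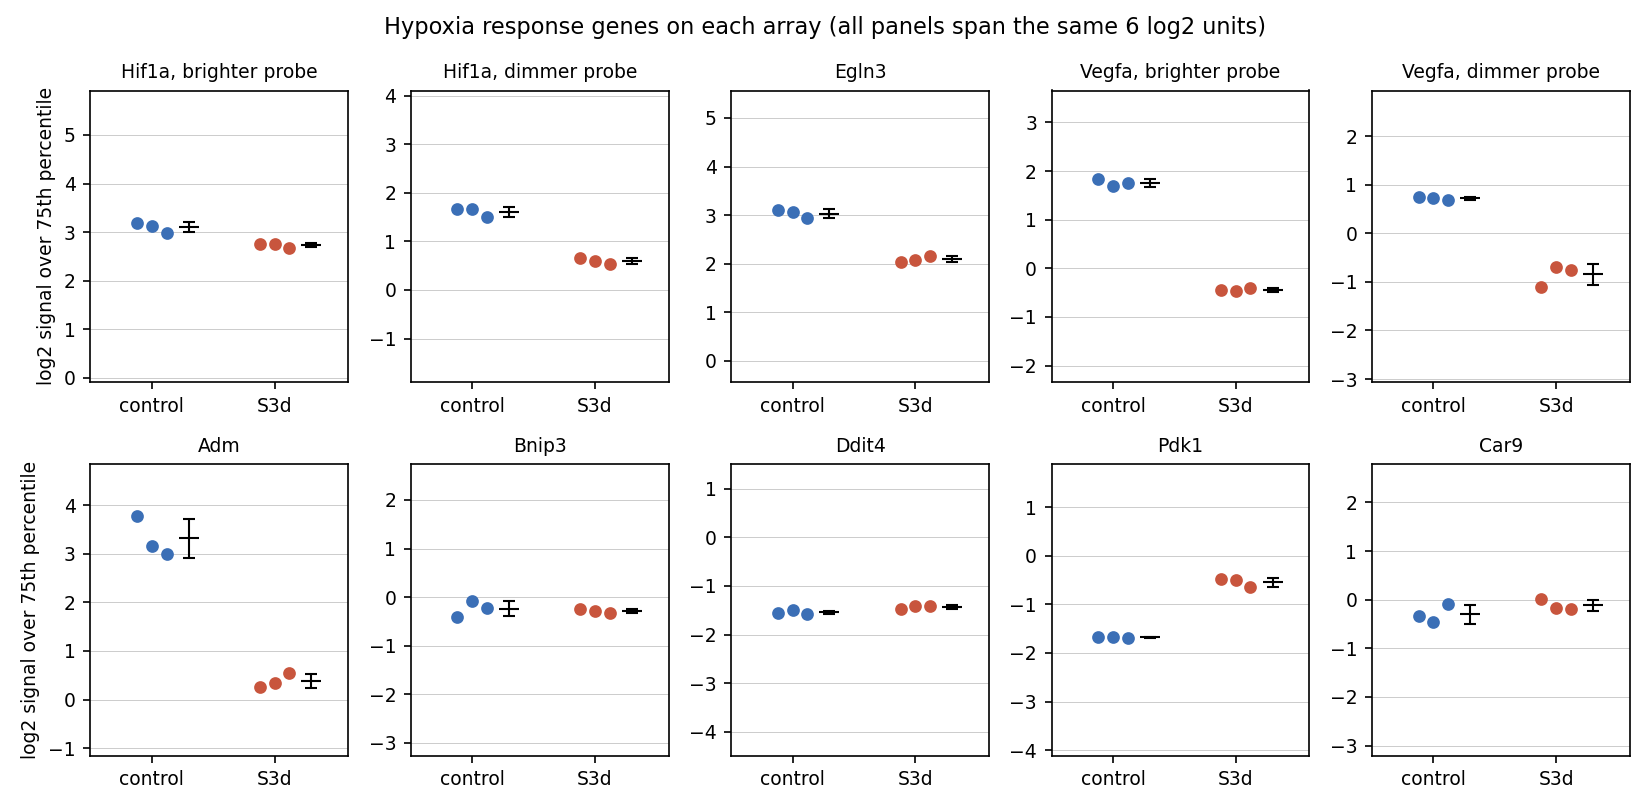
Level of each of the 10 probes on each array (y axis, log2 of the processed signal over the array's 75th percentile) for the arrays labelled control (blue) and S3d (red); points are arrays, and bars beside them are the mean ± SD of 3 arrays. Adm and both Vegfa probes show the widest gaps, Pdk1 is the only probe clearly higher on the S3d arrays, and the values of Bnip3 and Car9 overlap.

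Adrenomedullin, encoded by Adm, is a secreted peptide that widens vessels and tightens the endothelium. Its level was 3.77, 3.17 and 3.00 on the control arrays and 0.25, 0.35 and 0.54 on the S3d arrays. All S3d arrays were far below all control arrays, and control replicate 1 stood above the other controls. The difference was -2.94 ± 0.21 (SE, n = 3 per group), a 7.66-fold lower level with an adjusted p of 6.6e-05 in limma, and 0.453% of the tested probes fell further. An exact two-sided permutation test of 3 against 3 arrays gave 0.1, the smallest p it allows. The processed signal itself was lower as well, at 5681, 3844 and 3447 on the control arrays against 1739, 1983 and 2266 on the S3d arrays, although the S3d arrays were the brighter ones in general. The normalized table, by its own labels, gave Adm 9.91, 10.01 and 10.19 in control and 13.26, 12.70 and 12.55 in S3d.

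The Adm probe is spotted 10 times on each array, which gives its technical spread. Within an array the SD of the 10 spots was between 0.051 and 0.11 on the log2 scale. The lowest spot of control replicate 1 was at 3.66 and the highest spot of the other controls at 3.24, so that the higher level of this array held in each of its spots. The highest spot on any S3d array was at 0.66, below the lowest spot on any control array at 2.93.

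**Figure D2:**
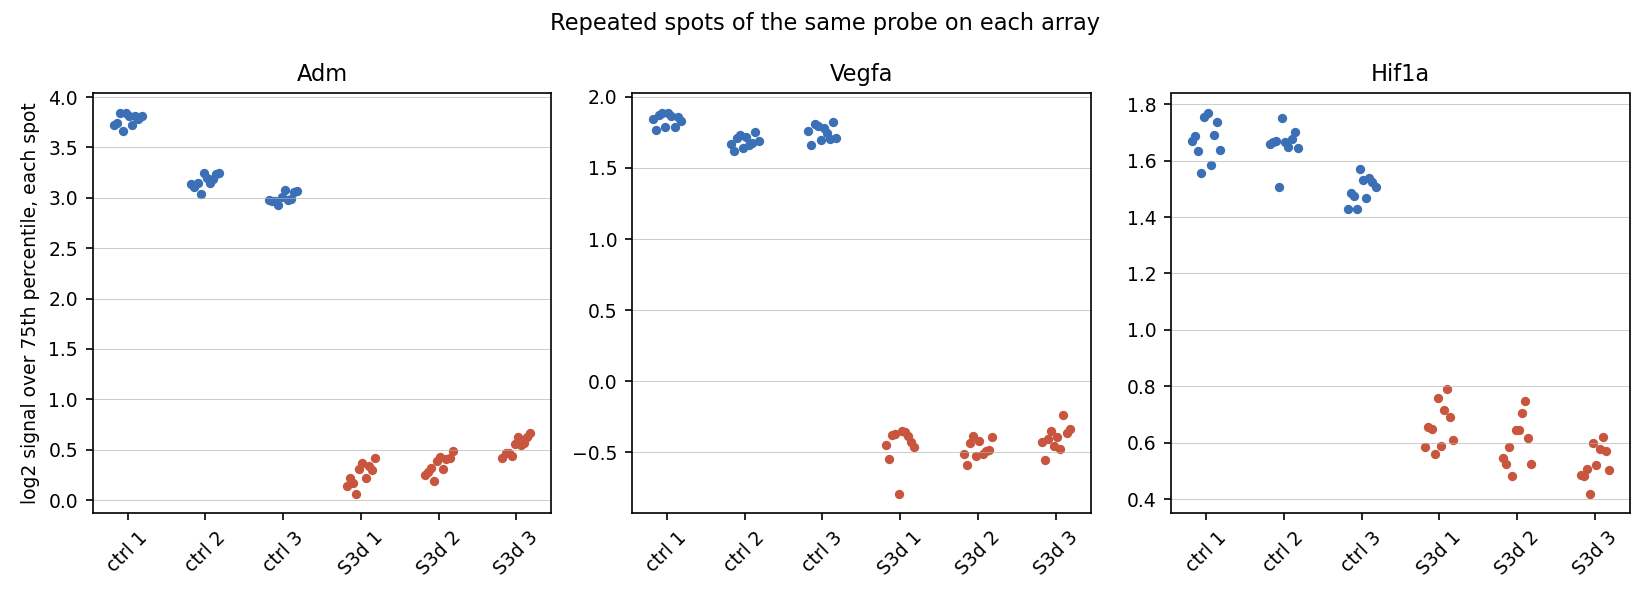
Each of the 10 repeated spots of the Adm, Vegfa and Hif1a probes that are spotted more than once, on each array (y axis, log2 of the processed signal over the array's 75th percentile; blue, arrays labelled control; red, arrays labelled S3d). Spots of one array lie close together, no spot of a control array falls into the range of the S3d arrays for any of the 3 probes, and control replicate 1 stands above the other controls for Adm.

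Vegfa encodes the main growth factor of blood vessels. Its brighter probe, also spotted 10 times, was at 1.84, 1.69 and 1.75 on the control arrays and at -0.45, -0.47 and -0.40 on the S3d arrays. The groups were separated by far more than their spread, with a difference of -2.20 ± 0.068 (SE, n = 3 per group) and an adjusted p of 1.1e-05. The second probe was at 0.75, 0.72 and 0.69 on the control arrays and at -1.10, -0.69 and -0.75 on the S3d arrays, a difference of -1.57 ± 0.12 with an adjusted p of 7.9e-05. Both probes thus moved the same way, by 4.59-fold and 2.96-fold. Of all tested probes, 1.81% and 5.09% had a lower fold change than the brighter and the dimmer probe. The processed signal of the brighter probe was 1376 to 1483 on the control arrays and 1070 to 1183 on the S3d arrays, and that of the dimmer probe overlapped between the groups. By its own labels, the normalized table gave the brighter probe 9.21, 9.17 and 9.24 in control and 11.43, 11.29 and 11.36 in S3d.

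Hif1a encodes the oxygen-controlled subunit of HIF. Its brighter probe was at 3.19, 3.13 and 2.99 on the control arrays and at 2.75, 2.75 and 2.68 on the S3d arrays. The values did not overlap, and the difference was -0.37 ± 0.076 (SE, n = 3 per group, adjusted p = 0.0048). This probe is among the 3137 brightest tested probes, whose median fold change was -0.49 on the log2 scale, and under quantile normalization its difference was -0.12, which did not pass the test (adjusted p = 0.17). Its 10-spot probe was at 1.67, 1.66 and 1.495 on the control arrays and at 0.66, 0.60 and 0.53 on the S3d arrays, lower by 2.02-fold with an adjusted p of 8.5e-05. The 2 probes therefore gave the same direction and different sizes. In the normalized table, by its own labels, the brighter probe did not pass the test (0.14, adjusted p = 0.12) and the 10-spot probe was higher in S3d (0.96, adjusted p = 0.00011).

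Egln3, the oxygen-sensing prolyl hydroxylase that is itself a HIF target, was at 3.098, 3.07 and 2.93 on the control arrays and at 2.04, 2.09 and 2.16 on the S3d arrays. All S3d values lay below all control values. The difference was -0.94 ± 0.075 (SE, n = 3 per group, adjusted p = 9.9e-05), and 14.2% of the tested probes fell further. The normalized table, by its own labels, gave 11.82 ± 0.070 in control and 12.57 ± 0.070 in S3d (SD, n = 3 each).

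Pdk1, the kinase that closes the entry of pyruvate into mitochondria, was the only member called higher. It was at -1.66, -1.68 and -1.69 on the control arrays and at -0.48, -0.51 and -0.65 on the S3d arrays. The control arrays lay close together, well below all S3d arrays. The difference was 1.13 ± 0.070 (SE, n = 3 per group), a 2.19-fold higher level with an adjusted p of 4e-05, and 16.4% of the tested probes rose further. With normexp background correction, which models the local background of each spot, the difference was 0.28 and did not pass the test (adjusted p = 0.59). Only 5.59% of all tested probes were called under that correction, and of the members Adm and Vegfa were, both lower.

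Bnip3, a mitophagy receptor of the outer mitochondrial membrane, was at -0.40, -0.08 and -0.22 on the control arrays and at -0.25, -0.29 and -0.32 on the S3d arrays. The S3d values lay within the range of the controls, and the difference of -0.05 had a 95% confidence interval of -0.29 to 0.18 (adjusted p = 0.63). Ddit4, an inhibitor of mTOR complex 1, was at -1.56, -1.50 and -1.57 on the control arrays and at -1.48, -1.42 and -1.41 on the S3d arrays. Its groups did not overlap but lay close, with a difference of 0.11 (95% confidence interval -0.04 to 0.25, adjusted p = 0.15). Car9, a membrane carbonic anhydrase, was at -0.34, -0.47 and -0.09 on the control arrays and at 0.01, -0.18 and -0.18 on the S3d arrays. These values overlapped, with a difference of 0.18 (95% confidence interval -0.11 to 0.47, adjusted p = 0.21). Of these 3 genes, Bnip3 and Ddit4 are among those whose cores are shown above.

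**Figure D3:**
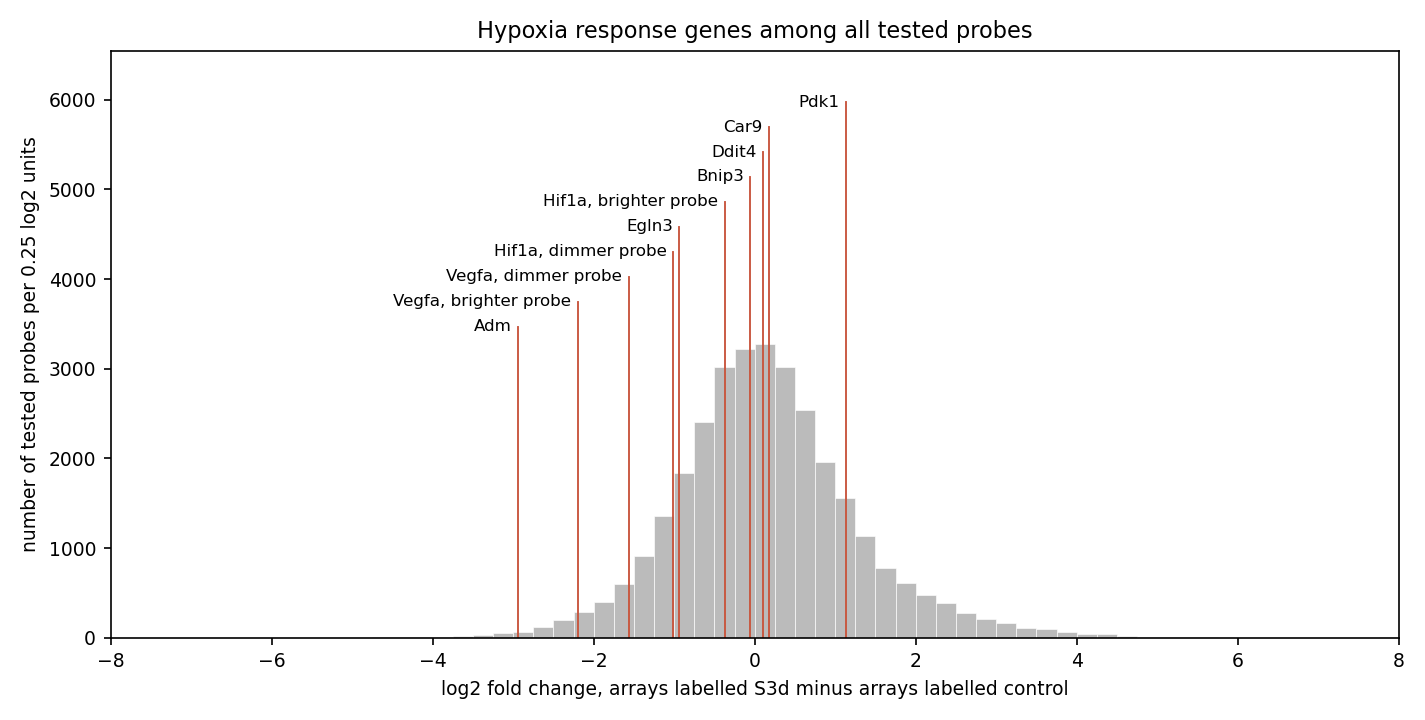
Number of tested probes (y axis, grey bars, per 0.25 log2 units) at each fold change (x axis, log2, arrays labelled S3d minus arrays labelled control, values beyond the axis being placed in the outermost bars), and the position of each of the 10 member probes (red lines, whose heights only separate the names). Adm and Vegfa lie in the lower tail, Bnip3, Ddit4 and Car9 near the median of all tested probes at 0.08, and Pdk1 above it.

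The 3 ways of scaling the scanner files gave the called members other than the brighter Hif1a probe the same direction and call. Among all tested probes the median fold change was 0.08 on the log2 scale with the 75th percentile, 0.01 with quantile normalization and -0.09 with median centring. Adm was at -2.94, -2.79 and -3.11 under these settings, Egln3 at -0.94, -0.74 and -1.11, and Pdk1 at 1.13, 1.08 and 0.96. Without any scaling the median of all tested probes was 1.93, and Adm at -1.09 and the brighter Vegfa probe at -0.35 were the only member probes still lower on the S3d arrays. With normexp background correction the median of all tested probes was -0.69. Relative to that median, Adm was at -1.66, the Vegfa probes at -1.06 and -0.70 and Pdk1 at 0.96, but Egln3 was at 0.31 and the Hif1a probes at 0.85 and 0.06, so that their direction against the typical probe turned under this correction. Relative to the median without scaling, Adm was at -3.02, Egln3 at -1.02 and Pdk1 at 1.05.

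**Figure D4:**
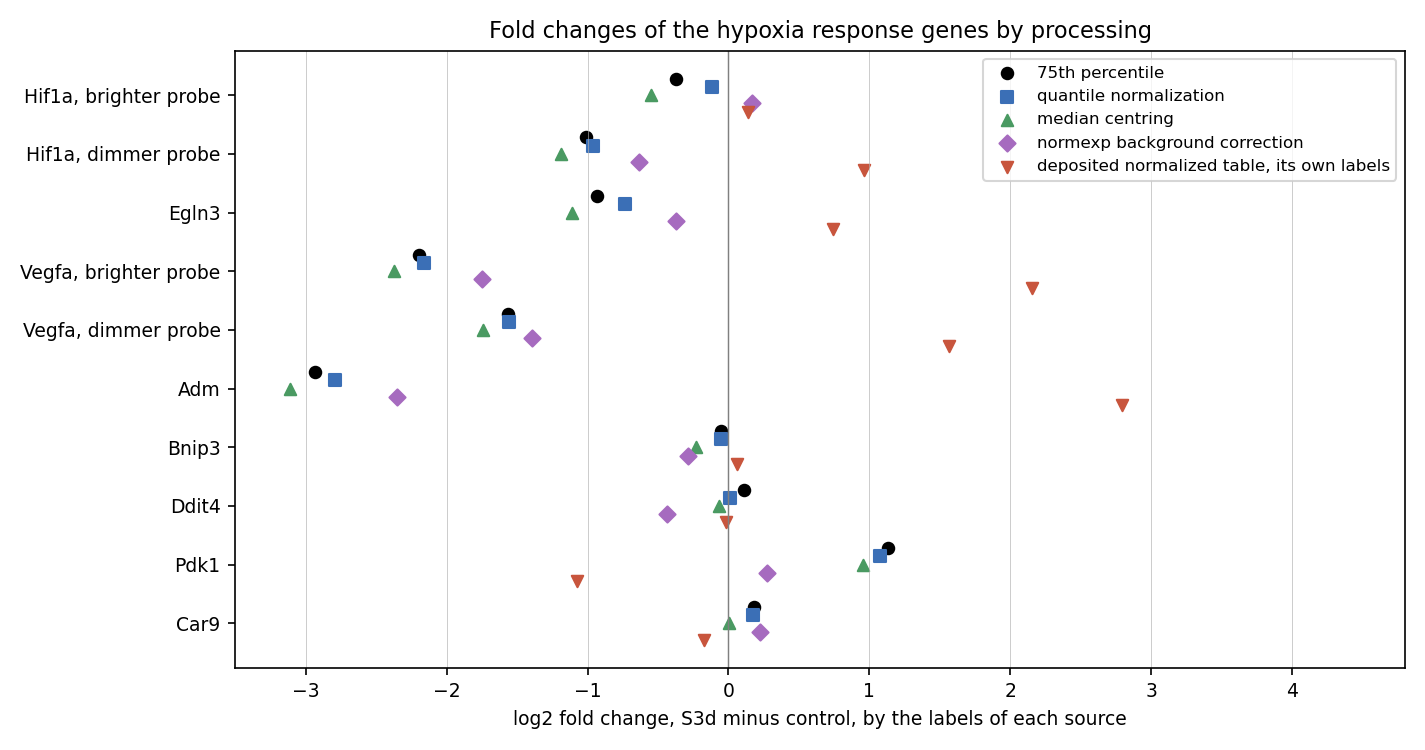
Log2 fold change (x axis, S3d minus control by the labels of each source) of each member probe with 4 ways of processing the scanner files and in the deposited normalized table by its own labels. With the 75th percentile, quantile normalization, median centring and normexp, the scanner files keep Adm, Vegfa, Egln3 and the dimmer Hif1a probe below 0 and Pdk1 above it, and the normalized table places them on the opposite side.

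Across the 6 arrays, the named genes whose levels followed the brighter Hif1a probe most closely were Atp6v1d, a subunit of the vesicular proton pump (Pearson's r = 0.9995), Nat2, an arylamine acetyltransferase (r = 0.998), and Abhd5, a co-activator of triglyceride breakdown (r = 0.998). The arrays fall into 2 clusters, the groups, and 1271 of 11416 genes compared had an r over 0.95, so this order describes the arrays and no more.

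The other genes of the pathway were followed in 6 lists. Together the lists held 88 genes apart from the members, of which 76 were tested, 39 called lower, 16 called higher and 21 not called. This is 51.3% lower, 21.1% higher and 72.4% in either direction, beside 34.5%, 39.5% and 74% of all tested probes. The median over these genes was -0.26, and that over all tested probes was 0.08. Genes are represented by their brightest probe, and the 3137 brightest tested probes had a median of -0.49, and the 3136 dimmest a median of 1.28. With quantile normalization 35 were called lower and 21 higher, with a median of -0.22. Where a probe had to be well above background on all 6 arrays, 37 were called lower and 11 higher. At the study's threshold, unadjusted p under 0.01 and 1.5-fold, 29 were lower and 12 higher. By the own labels of the normalized table, 35 were called higher and 21 lower. For 8 genes, Higd1a and Plod2 among them, the tested probes differed in sign. The values given for these genes are differences on the log2 scale, S3d minus control by the labels of the scanner files. Signs under normexp stand beside a median of all tested probes of -0.69. Of the genes given below with the opposite sign under normexp, Hif3a and Adora2b still lay above that median, by 0.54 and 0.58. Vhl, Vegfc, Higd1a, Mxi1 and Bnip3l, given below as lower, lay above it by 0.45, 0.16, 0.11, 0.15 and 0.76 with normexp. Their direction against the typical probe thus turned under this correction.

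Of the HIF subunits and oxygen sensing machinery, 6 of 12 tested genes were called lower and 2 higher, with a median of -0.23. At the study's threshold 3 were lower and 1 higher. Where a probe had to be well above background on all 6 arrays, 7 were called lower and 1 higher. Epas1, the second alpha subunit and the one most used by endothelium, was at 1.07, 0.89 and 1.04 on the control arrays and at -0.85, -1.15 and -1.01 on the S3d arrays. The groups were separated by -2.003 ± 0.10 (SE, n = 3 per group, adjusted p = 2.3e-05). Hif3a, an alpha subunit that can oppose the others, was higher by 2.44, but only 2 of the 3 control arrays had it above background, and with normexp its difference was -0.15. Elob and Vhl, which form the ligase that removes the alpha subunits, were lower, at -1.54 and -0.70 on the log2 scale, the latter at -0.37 with quantile normalization.

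Of the VEGF and adrenomedullin ligands and receptors, 8 of 15 tested genes were called lower and 3 higher, with a median of -0.31. At the study's threshold 4 were lower and 3 higher. Calcrl, the receptor core for adrenomedullin, had a difference of -2.13 ± 0.073 (SE, n = 3 per group, adjusted p = 1.2e-05), and only 1 of the 3 S3d arrays had it above background. The growth factors Vegfb and Vegfc were lower, at -1.39 and -0.95 on the log2 scale. Edn1, the vessel-narrowing endothelin, and Tek, the angiopoietin receptor of endothelium, were higher by 1.10 and 1.53, but both had the opposite sign with normexp (-1.09 and -1.49), and Tek was above background on 1 of the 3 control arrays. With quantile normalization they were at 0.73 and 1.003.

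Of the glycolytic targets, 9 of 15 tested genes were called lower and 3 higher, with a median of -0.85. With quantile normalization the median was -0.26, with 8 genes called lower and 5 higher. Pfkfb3, which makes the activator of phosphofructokinase, was at -1.20, -1.70 and -1.66 on the control arrays and at -4.82, -4.86 and -4.63 on the S3d arrays. This was the lowest fold change of the lists, -3.25 ± 0.15 (SE, n = 3 per group, adjusted p = 1.9e-05). The glucose transporter Slc2a1, hexokinase Hk2 and the lactate exporter Slc16a3 were lower, at -1.43, -1.41 and -1.39, the last at -0.86 with quantile normalization. Hk1, the housekeeping hexokinase, was higher by 1.44 (adjusted p = 2e-05), also with normexp (1.56). Of the mitochondrial and mTOR targets, 4 of 8 tested genes were called lower and 1 higher, with a median of -0.35 (-0.13 with quantile normalization). Pdk4, a kinase of the same family as Pdk1, was lower, at -1.30, where Pdk1 was higher. Higd1a and Mxi1 were lower, at -1.16 and -0.65, and Bnip3l at -0.59, with the opposite sign under normexp (0.08). With quantile normalization Higd1a was at -0.41, and Bnip3l, at -0.17, was not called (adjusted p = 0.14).

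Of the pH genes and further HIF targets, 10 of 17 tested genes were called lower and 2 higher, with a median of -0.31. With quantile normalization 9 were called lower and 4 higher. Leaving out each array in turn, 8 to 10 were called lower and 1 to 3 higher. Hmox1, the haem-degrading enzyme, was at 3.56, 3.29 and 3.13 on the control arrays and at 0.39, 0.60 and 1.12 on the S3d arrays, a difference of -2.63 ± 0.21 (SE, n = 3 per group, adjusted p = 1e-04). The inducible nitric oxide synthase Nos2 was lower, at -3.05, and above background on 2 of the 3 S3d arrays. The collagen-modifying Plod2 was lower, at -1.18, with its probes of opposite sign. Stc2 was not well above background on any control array, and the bound on its rise was at least 1.23-fold, with the opposite sign under normexp (-1.99). Stc2 entered the test only through the S3d arrays, so no p-value is given for the main scaling. With quantile normalization Stc2 did not pass the test (adjusted p = 0.18). Of the epithelial barrier targets, 5 of 9 tested genes were called higher and 2 lower, with a median of 0.61. Where a probe had to be well above background on all 6 arrays, 3 were called higher. The drug exporter Abcb1a was not well above background on any control array. On the S3d arrays it was at 0.37, 0.29 and -0.49, at least 61.4-fold higher. Abcb1a entered the test only through the S3d arrays, so no p-value is given. With normexp its difference of 2.06 did not pass the test. Cldn1, a tight junction protein, was higher by 2.03, with 1 of the 3 control arrays above background, and the adenosine receptor Adora2b by 0.70; both had the opposite sign with normexp (-1.14 and -0.11). The goblet cell peptide Tff3 and the creatine kinase Ckb were lower, at -2.13 and -1.82, and at -0.94 and -1.14 with quantile normalization.

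**Figure D5:**
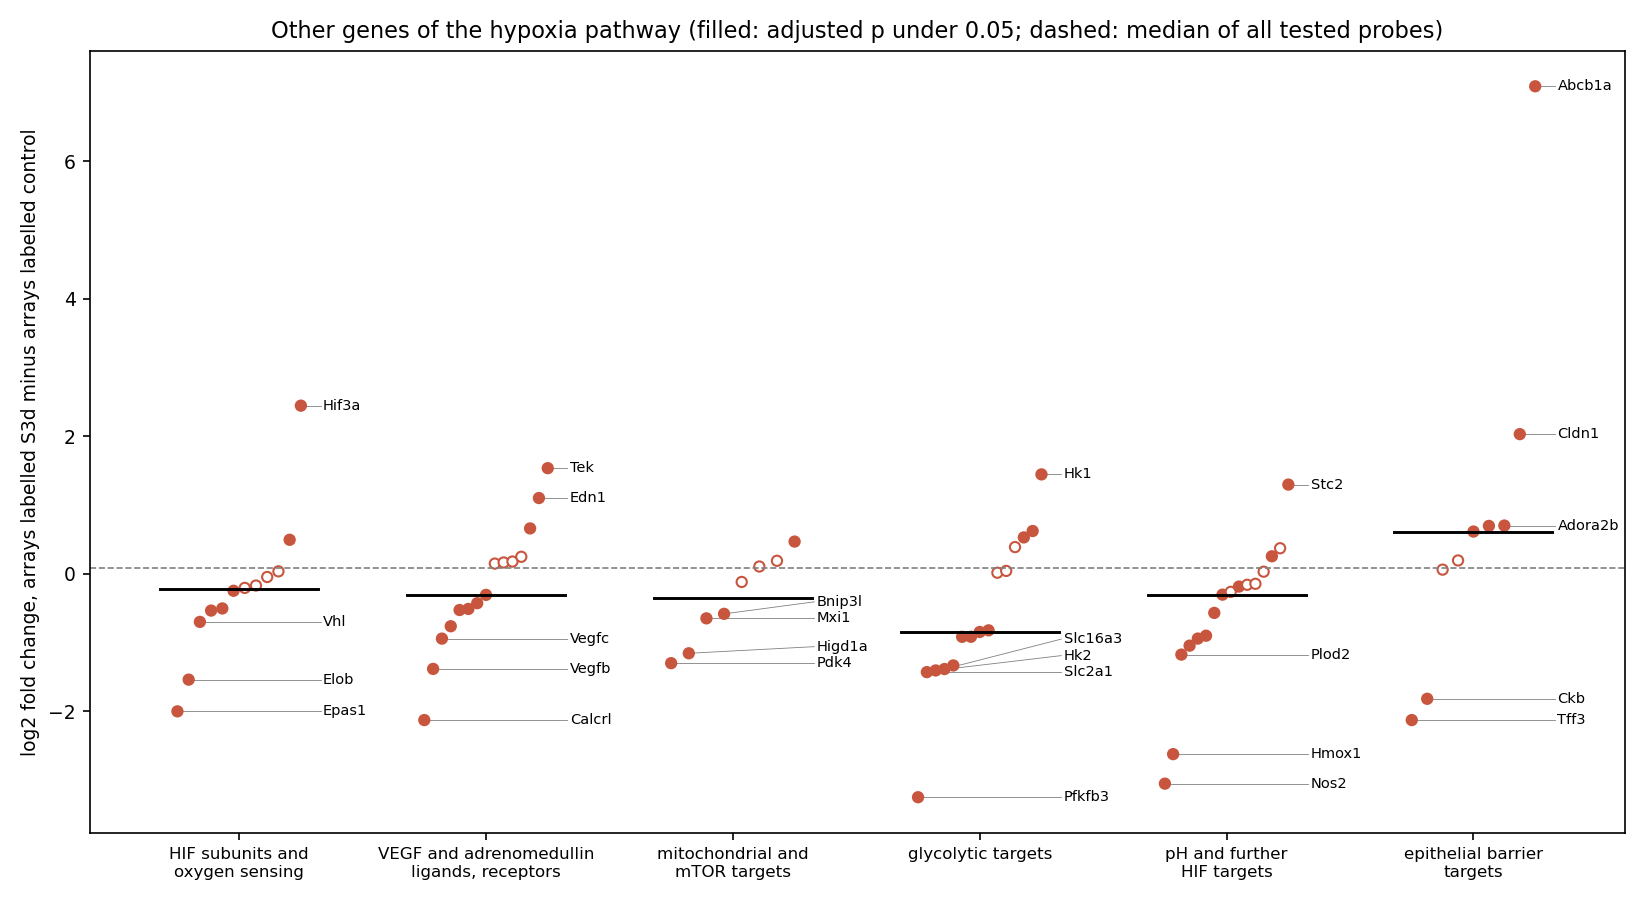
Log2 fold change (y axis, arrays labelled S3d minus arrays labelled control) of the tested genes of the 6 lists without the members, apart from 1 gene of the pH and further targets that is not shown; filled points passed an adjusted p under 0.05, black lines are list medians and the dashed line is the median of all tested probes. The glycolytic list has the lowest median, -0.85, and the epithelial barrier list the highest, 0.61, under this scaling (with quantile normalization the glycolytic median was -0.26 and that of the VEGF and adrenomedullin list, -0.35, was lower), with Abcb1a standing apart.

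Vessels, blood and epithelium bring these transcripts into a piece of gut, and their markers moved as well. Of the endothelial markers, 7 of 8 tested genes were called, 4 lower and 3 higher, where 74% of all tested probes were called, and their summed level (in units of the 75th percentile) was 2.34 to 2.50 on the control arrays and 2.83 to 2.98 on the S3d arrays. Pecam1 and Cd34 were lower, at -1.17 and -1.58, Emcn and Cldn5 were higher by 1.37 and 1.31, and Cdh5 did not pass the test (0.22, adjusted p = 0.29). Of the red blood cell markers, all 4 tested genes were called, 3 lower and 1 higher, with a summed level of 42.7 to 49.6 on the control arrays and 15.8 to 29.7 on the S3d arrays. Hbb was lower, at -3.76, Alas2 at -1.65 and Hbb-b1 at -1.13, and Slc4a1 was higher by 0.34, but with quantile normalization Hbb-b1 (adjusted p = 0.059) and Slc4a1 (adjusted p = 0.061) were not called. Summed levels of villus enterocyte markers were 3444 to 3839 against 1475 to 1523, with 7 of 9 tested genes called lower and 1 higher, and those of goblet cell markers 869 to 919 against 324 to 343, with 2 of 3 lower. These falls depended on the scaling: with quantile normalization 2 of the 9 villus enterocyte genes were called lower and 3 higher, with a median of -0.02, and of the goblet cell genes 1 was called lower and 1 higher. Leukocyte markers summed to 178 to 195 against 118 to 128 (6 of 8 lower, 1 higher). With quantile normalization 4 of these 8 genes were called lower and 2 higher, with a median of -0.28. Smooth muscle markers summed to 123 to 147 against 115 to 135 (3 of 7 lower, 2 higher). Proliferating crypt cell markers summed to 45.3 to 49.7 against 51.0 to 52.6 (2 of 7 lower, 5 higher). Quantile normalization gave 3 lower and 3 higher for smooth muscle, and 1 lower and 4 higher for crypt cells. Every marker gene that had a probe passed the detection filter. The part of these cells in the levels of the hypoxia response genes was not tested.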

How the data were processed

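RNA of 3 control and 3 S3d samples was measured on Agilent 1-colour rat arrays. The authors deposited the scanner output of Agilent Feature Extraction 10.7.3.1, whose intensity values (processed signal) are background-corrected within the array and not scaled between arrays, and 1 table of log2 values, which the authors had quantile-normalized, as its columns show; the program is not given in the sources used here. From the intensities, outlier-flagged spots were dropped, each array was scaled to its 75th percentile, log2 was taken and repeated spots were averaged per probe. A probe was tested if either group had it well above background on its 3 arrays (31367 were, 9645 were not) with limma 3.58.1 in R 4.3.3 (lmFit, eBayes, Benjamini-Hochberg), which was first tested on simulated data. Probes were named through RefSeq accessions and the GRCr8 tables (17512 of 41012 probes matched). Figures and sequence searches used Python 3.11.15, pandas 2.3.3, numpy 2.4.6 and matplotlib 3.10.9. The genes of the lists that are named are at most the 5 per list with the largest fold change among those past an adjusted p of 0.05 and 1.5-fold without overlap of the groups; the 3 genes closest to Hif1a and the endothelial and red blood cell markers are also named. A gene that this rule would name is not reported here. The members and lists were chosen with earlier results of these data known. Normexp (offset 50) used the median signal, as no mean signal was given. As alternatives, scaling was by quantiles, by medians or absent, background was corrected by normexp, dim probes were filtered in 2 other ways, flagged spots were kept, and the normalized table was tested; further fits used a replicate block, a trend with intensity, the methods' analysis of variance, the mean over probes, the study's threshold and each array left out. The slide as a block could not be fitted, since no slide holds both groups. The labels do not say that the pools came from separate rats, so p-values measure the spread between these samples, whose number limits the precision.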

Additional observations from a re-analysis of the deposited data

How the results depend on the processing

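Quantile normalization, median centring, both other filters, outlier spots kept and the intensity trend kept the direction and call of each member probe, except that the brighter Hif1a probe was not called with quantile normalization (-0.12) and Ddit4 changed sign with median centring (-0.068, not called). Without scaling, the member differences that changed sign or call were 1.47 and 0.83 for the brighter and dimmer Hif1a probe, 0.28 for the dimmer Vegfa probe, 0.91 for Egln3, 1.79 for Bnip3, 1.95 for Ddit4 and 2.02 for Car9, and 6 members were called higher and 2 lower, with 67 higher and 5 lower in the lists. With normexp the differences were 0.17 and -0.63 for Hif1a, -0.37 for Egln3, -0.44 for Ddit4 and 0.28 for Pdk1, none of them called; 0 members were called higher and 2 lower, and in the lists 1 higher and 5 lower, while 1752 of all tested probes were called in place of 23202. In the normalized table, by its own labels, each sign was the opposite: 0.14 and 0.96 for Hif1a, 2.16 and 1.57 for Vegfa, 0.74 for Egln3, 2.80 for Adm, 0.058 for Bnip3, -0.014 for Ddit4, -1.08 for Pdk1 and -0.17 for Car9, with 3 members called higher and 1 lower and, in the lists, 35 higher and 21 lower. The methods' analysis of variance called Ddit4 (0.11, adjusted p = 0.034), so 2 members were higher. With the mean over probes, 1 member was called higher and 4 lower. At the study's threshold, unadjusted p under 0.01 and 1.5-fold, 1 member was higher and 3 lower. The brighter Hif1a probe, 1.30-fold lower, did not reach that threshold. The cause of these changes was not tested, except that each column of the table tracks a scanner file with the other group's label.

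Leaving out each array in turn, the differences ranged from -3.09 to -2.71 for Adm, -2.23 to -2.16 and -1.64 to -1.44 for Vegfa, -0.43 to -0.33 and -1.07 to -0.98 for Hif1a, -0.99 to -0.90 for Egln3, 1.10 to 1.19 for Pdk1, -0.14 to 0.025 for Bnip3, 0.10 to 0.13 for Ddit4 and 0.093 to 0.28 for Car9; 1 to 2 members were called higher and 4 lower. Bnip3 changed sign without control replicate 2, and Car9 was called without control replicate 3. With the replicate block, 22211 probes were called and no member probe changed its call; same-numbered arrays did not deviate together (correlations of -0.05 to 0.02), so the numbers do not pair the samples.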
